A study of Mus musculus with 6 samples.

Results

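Of 31 genes for lysosomal hydrolases, their helpers, lysosomal membrane proteins and the lysosomal transcription factor Tfeb, 29 had an array probe annotated to that gene alone, and 28 were bright enough to be tested. The probe with the highest mean level over the 6 arrays stood for each gene. Sgsh, the sulfamidase of heparan sulfate breakdown, lay under the filter on dim probes, and Psap and Npc1 are not analysed here. The genes are a small part of the 14817 genes tested on these arrays. RNA from perfused, flash-frozen pieces of kidney was measured on single-colour CodeLink oligonucleotide arrays. There were 3 mice homozygous for a mutation, labelled KO, and 3 wild-type mice, with 1 array per animal and different animals on every array. The mutated gene, the strain, the age and any treatment are not given in the labels or files, so the mutated transcript could not be checked against the labels. Each level is a log2 intensity with the median of its array at 0. Each difference is the mutant mean minus the wild-type mean, given with its SE from limma.

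Lysosomes are acidic organelles that break down material taken up by endocytosis, phagocytosis and autophagy. Soluble hydrolases reach them mostly by mannose 6-phosphate tags, and heavily glycosylated membrane proteins line and protect the organelle. Proximal tubule cells of the kidney, which take up filtered protein, and macrophages are both rich in lysosomes. TFEB is a basic helix-loop-helix factor that binds E-box sequences known as CLEAR elements in the promoters of many lysosomal genes.

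The promoters of the members that differed most clearly, Scarb2 and Gusb, are shown beside those of Lamp1, Mcoln1 and Cln3, which did not pass the test and were picked because they hold E-box motifs. Of the 24 tested members with a window that did not pass, 16 hold none. The windows are the 250 bases before a RefSeq start site of build GRCm38.p6, written 5′ to 3′ on the strand of the gene, with each CACGTG E-box in capitals.
Scarb2, chr5:92505658-92505907, minus strand: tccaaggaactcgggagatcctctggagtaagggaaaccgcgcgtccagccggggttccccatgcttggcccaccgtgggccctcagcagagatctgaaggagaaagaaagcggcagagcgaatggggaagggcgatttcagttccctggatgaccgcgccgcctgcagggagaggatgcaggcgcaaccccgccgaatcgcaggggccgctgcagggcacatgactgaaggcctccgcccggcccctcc
Gusb, chr5:130003050-130003299, minus strand: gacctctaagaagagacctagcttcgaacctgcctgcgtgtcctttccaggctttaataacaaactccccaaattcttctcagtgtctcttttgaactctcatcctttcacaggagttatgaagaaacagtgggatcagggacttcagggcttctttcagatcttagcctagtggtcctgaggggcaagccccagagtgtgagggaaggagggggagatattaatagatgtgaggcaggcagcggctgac
Lamp1, chr8:13158911-13159160, plus strand: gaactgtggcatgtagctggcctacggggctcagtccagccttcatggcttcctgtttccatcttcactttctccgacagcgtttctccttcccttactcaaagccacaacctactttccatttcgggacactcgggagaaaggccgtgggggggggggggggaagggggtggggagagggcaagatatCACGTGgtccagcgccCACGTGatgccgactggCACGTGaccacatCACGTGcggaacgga
Mcoln1, chr8:3500269-3500518, plus strand: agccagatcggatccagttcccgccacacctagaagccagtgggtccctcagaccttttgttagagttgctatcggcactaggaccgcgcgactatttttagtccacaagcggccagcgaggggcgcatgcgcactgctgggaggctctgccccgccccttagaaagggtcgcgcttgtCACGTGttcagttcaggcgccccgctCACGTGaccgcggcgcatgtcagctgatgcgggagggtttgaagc
Cln3, chr7:126583237-126583486, minus strand: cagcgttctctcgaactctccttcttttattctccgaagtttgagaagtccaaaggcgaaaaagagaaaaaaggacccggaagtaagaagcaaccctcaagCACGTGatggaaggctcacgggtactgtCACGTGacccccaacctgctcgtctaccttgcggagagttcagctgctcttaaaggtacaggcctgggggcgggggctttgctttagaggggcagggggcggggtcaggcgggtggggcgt
The core E-box CACGTG, a palindrome that reads the same on both strands, was absent from the Scarb2 and Gusb windows. The Lamp1 window held 4 copies, the first bases of which lay 61, 45, 28 and 15 bases before the start site. The Mcoln1 window held 2, at 71 and 45 bases, and the Cln3 window shown held 2, at 149 and 121 bases. The window of another Cln3 start site, chr7:126585818-126586067, held 0. Symbols of 28 of the 31 members matched the promoter table, with 33 windows. Among these, 9 genes held the core E-box (32.1%), against 6.86% of the 27025 genes in the table and 8.83% of the 11858 matched genes that were tested. The longer TCACGTGA, which also contains the core, stood in 3 member genes (10.7%), against 0.907% of all genes in the table. The 8 tested members with the core E-box had a median difference of -0.01 log2, and 0 of them passed the test. The 18 tested members without it had a median difference of 0.23 log2, and 2 passed. Differences were positive in 4 of the 8 and in 12 of the 18, and the sets were not compared by a test. Both sets include genes of low signal, Naglu and Arsa in the first and Neu1, Idua and Ids in the second. A match of letters does not show binding, and a window without them says nothing about TFEB.

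Replicate 1 of each genotype stood apart from the other 4 arrays in sex-linked transcripts. Counts by class and list are therefore also given with replicates 2 and 3 only, from a limma fit to those 4 arrays.

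In mutant kidneys 2 of the 28 tested members rose and 0 fell (limma, adjusted p under 0.05 over all probes). With replicates 2 and 3 only, 1 member rose, Scarb2, and 1 fell, Lamp2, of 27 tested, where 3.73% of all genes rose and 1.53% fell. In the fit to all 6 arrays, the members that rose were Scarb2 and Gusb. Scarb2 is a lysosomal membrane protein that carries glucocerebrosidase to the lysosome. Gusb is the glycosidase that removes glucuronic acid from glycosaminoglycans. Over all genes, 5.67% rose and 1.59% fell, so the members' share of 7.14% is close to that of all genes and is no result about the list. The median member differed by 0.16 log2, beside 0.08 for the median of all genes tested. Differences were positive in 18 members and negative in 10, and among the 23 members whose mean was above the low-signal limit in both genotypes they ran from -0.68 for Galc to 1.16 for Scarb2. That limit, 0.59 log2, is the level above which a probe stands clear of the background of these arrays. The 3 mutant arrays lay above the 3 wild-type arrays in 8 of 26 members with 6 values and below them in 3. Over all genes with 6 values these shares were 17.8% and 8.89%.

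Scarb2 had levels of 5.33, 5.25 and 5.18 log2 in mutant kidneys, against 4.10, 4.10 and 4.08 log2 in wild-type kidneys. The groups were more than 1 log2 unit apart, while arrays of a genotype differed by less than 0.2. Scarb2 rose by 1.16 ± 0.12 log2 units (95% interval 0.89 to 1.43), or 2.23-fold (limma, adjusted p = 7.1e-05). Other Scarb2 probes were also tested. The second had 3.74, 3.48 and 3.47 log2 in mutants, against 2.49, 2.64 and 2.49 log2 in wild type, and rose by 1.02 ± 0.15 (limma, adjusted p = 0.0012). The third had 3.36, 3.40 and 3.34 log2 in mutants, against 2.70, 2.20 and 1.63 log2 in wild type, and rose by 1.19 ± 0.23 (limma, adjusted p = 0.0062). The 3 probes thus gave between 2.03-fold and 2.28-fold, and in each of them every mutant array lay above every wild-type array. With no intensity trend in the variance, 0.965% of genes rose. Scarb2 was still among them by its first probe (limma, adjusted p = 0.0494), while the other Scarb2 probes did not pass (0.0759 and 0.150).

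Gusb had levels of 3.46, 3.06 and 3.20 log2 in mutant kidneys, against 2.22, 2.80 and 2.58 log2 in wild-type kidneys. The groups did not overlap, but the arrays of each genotype were spread more widely than for Scarb2. Gusb rose by 0.71 ± 0.19 log2 units (95% interval 0.30 to 1.11), or 1.63-fold (limma, adjusted p = 0.0426). This call was close to the threshold, and it was lost in 5 of the 6 fits that left out 1 array (limma, adjusted p from 0.0751 to 0.171) and with no intensity trend (0.250). Gusb is known to be induced by androgens in mouse kidney. Of 6 other genes known to respond to androgens there, 1 rose (Hsd11b1, 0.72 ± 0.15 log2) and 0 fell. Their median difference was -0.41 log2, with negative differences in 4, including Slco1a1, which was below the low-signal limit in both genotypes. The 6 genes were not sorted by the direction of their response, so the sign of this median has no reading about androgens. With replicates 2 and 3 only, 0 of these 6 passed, and their median difference was -0.53 log2. Kap and Odc1 differed by -0.58 ± 0.18 and -0.50 ± 0.15 log2, and neither passed (limma, adjusted p = 0.0901 and 0.0813). All mutant arrays lay below all wild-type arrays for both. The part of androgens in the Gusb difference was not tested. The replicate 1 arrays carried a female pattern of sex-linked transcripts, with Xist at 3.00 log2 in the mutant and 2.21 log2 in the wild type and Eif2s3y at the floor in both. On the other 4 arrays Xist was below 0 log2 and Eif2s3y at or above 3.01 log2. Replicate 1 held the highest Gusb level among mutants and the lowest among wild types. The Gusb difference was 1.24 log2 between the replicate 1 arrays and 0.44 log2 between replicates 2 and 3 (limma on those 4 arrays, adjusted p = 0.241). For Scarb2 the same values were 1.22 and 1.13 log2, so that the difference was about as large in either set of animals.

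**Figure D1:**
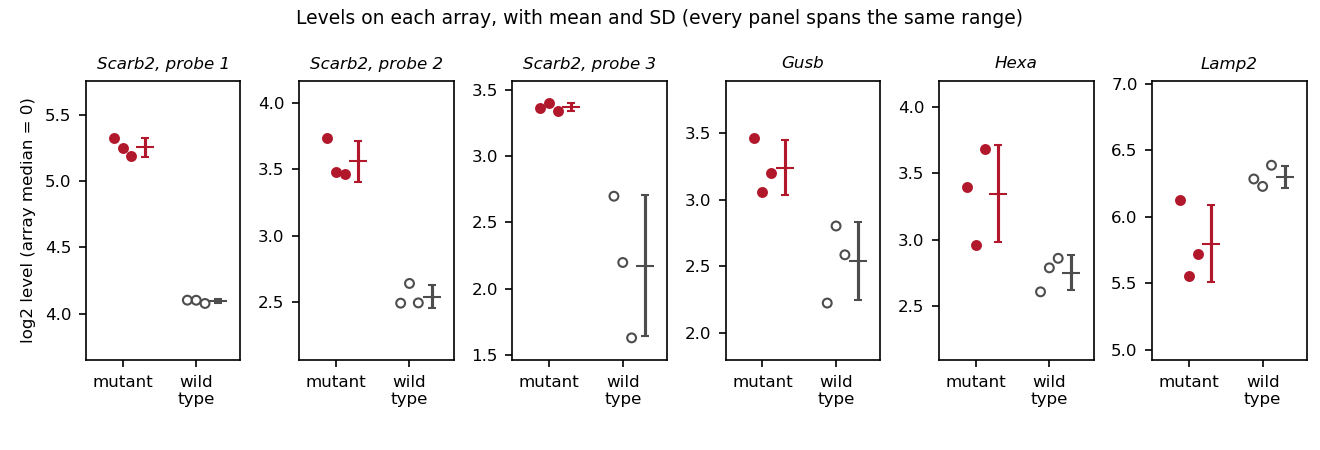
Log2 levels on each array (array median = 0) of the 3 Scarb2 probes and of Gusb, Hexa and Lamp2, with mutant arrays as filled points, wild-type arrays as open points, and the mean and SD of 3 arrays beside them. Mutant arrays lie above wild-type arrays in the first 5 panels and below them for Lamp2; only Scarb2 and Gusb passed the test.

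Among the 9 glycosidases, which trim sugars from glycoproteins, glycolipids and glycosaminoglycans, 1 rose and 0 fell, with a median difference of 0.10 log2. None of the 9 passed with replicates 2 and 3 only. Hexa, the alpha subunit of beta-hexosaminidase, which degrades GM2 ganglioside, had 3.40, 2.96 and 3.68 log2 in mutants, against 2.61, 2.79 and 2.86 log2 in wild type. Its groups did not overlap, and its difference of 0.59 ± 0.19 did not pass (limma, adjusted p = 0.0978). The beta-galactosidase Glb1 and the alpha-mannosidase Man2b1 differed by 0.09 ± 0.17 and 0.10 ± 0.16 log2, and a second Man2b1 probe by 0.28 ± 0.20. The glycogen-degrading Gaa differed by 0.01 ± 0.27, the alpha-galactosidase Gla by -0.26 ± 0.36. The sialidase Neu1 averaged 0.63 log2 in mutants, just above the low-signal limit, and 0.44 log2 in wild type, below it. Neu1 was above that limit on 2 arrays and did not pass. Gla had 0.40, 1.87 and 1.82 log2 in mutants, against 1.86, 1.25 and 1.77 log2 in wild type. Without mutant replicate 1 its difference was 0.22 log2, so that array set the sign.

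Naglu and Idua, both of heparan sulfate breakdown, lay near the low-signal limit. Naglu had -1.38, -0.41 and 0.80 log2 in mutants, against 0.74, 0.74 and 0.57 log2 in wild type. Its mutant mean of -0.33 log2 was below the limit, with 1 mutant array above it, so that no size of the difference is given. Its mutant arrays spread over more than 2 log2 units, and it did not pass (limma, adjusted p = 0.356). Idua had 0.67, 1.27 and 0.32 log2 in mutants, against -0.34 and 0.09 log2 in wild-type replicates 2 and 3. The reading of wild-type replicate 1 was not above 0 and was left out, so the lowest wild-type reading is missing here. With 0.5 added to every value before the log2, that array counted again and Idua differed by 1.49 log2 (limma, adjusted p = 0.217). Its wild-type values were below the limit, and it did not pass (limma, adjusted p = 0.371).

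None of the 3 tested sulfatases, which remove sulfate groups from glycosaminoglycans and sulfolipids, passed the test. Arsa, which acts on sulfatide, had 1.70, 1.26 and 1.40 log2 in mutants, against -0.46, 0.68 and 0.79 log2 in wild type. These groups did not overlap, but the wild-type arrays were spread over more than 1 log2 unit, and the difference of 1.12 ± 0.37 did not pass (limma, adjusted p = 0.119). Wild-type replicate 1 alone lay below the low-signal limit, but the wild-type mean of 0.34 log2 was below it too. The mutant mean lay 1.83-fold above that limit. With replicates 2 and 3 only the difference was 0.60 log2. Arsb, which acts on dermatan sulfate, differed by -0.24 ± 0.18. Ids, the iduronate sulfatase, was below the limit on every array with a value and had no value for wild-type replicate 2, so no difference is given. Sgsh, also below the limit in both genotypes, ranged from -1.79 to -0.55 log2 in mutants and from -1.70 to -0.32 log2 in 2 wild types.

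Among 5 tested genes of lysosomal lipid handling 0 passed, and their median difference was -0.17 log2. None of these passed with replicates 2 and 3 only, nor did any of 2 tested sulfatases or of the protein-processing enzymes. The direction differed within the class. Galc, which removes galactose from galactosylceramide, had 1.54, 1.06 and 1.01 log2 in mutants, against 1.87, 1.89 and 1.89 log2 in wild type. Every mutant array lay below the narrow wild-type range, and the difference of -0.68 ± 0.25 did not pass (limma, adjusted p = 0.156). Npc2, the soluble carrier that hands cholesterol on inside the lysosome, had 6.11, 5.78 and 6.00 log2 in mutants, against 5.54, 5.68 and 5.61 log2 in wild type. Its groups did not overlap in the other direction, with a difference of 0.36 ± 0.14 (limma, adjusted p = 0.195). The acid lipase Lipa, which hydrolyses cholesteryl esters, differed by -0.34 ± 0.23, the acid sphingomyelinase Smpd1 by -0.17 ± 0.16 and the acid ceramidase Asah1 by 0.21 ± 0.18. The protein-processing enzymes Tpp1, a tripeptidyl peptidase, and Ppt1, which takes palmitate off proteins, differed by 0.14 ± 0.16 and 0.37 ± 0.18.

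Among the 8 tested membrane proteins 1 rose, 0 fell, and the median difference was 0.09 log2. With replicates 2 and 3 only, 1 rose and 1 fell (Lamp2, -0.67 log2, limma adjusted p = 0.0326). Lamp1 and Lamp2, the major glycoproteins of the lysosomal membrane, lay on the other side from Scarb2. Lamp1 had 6.19, 6.13 and 6.21 log2 in mutants, against 6.40, 6.38 and 6.40 log2 in wild type, and differed by -0.22 ± 0.13 (limma, adjusted p = 0.470). Lamp2 had 6.12, 5.56 and 5.72 log2 in mutants, against 6.28, 6.23 and 6.39 log2 in wild type. All mutants lay below all wild types for both genes, and neither passed. The Lamp2 difference was -0.50 ± 0.16 (limma, adjusted p = 0.104), and it passed without mutant replicate 1 (-0.66, adjusted p = 0.0355).

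Laptm4a and Laptm4b, related proteins that span the lysosomal membrane, had small differences in the other direction. Laptm4a had 5.50, 5.39 and 5.39 log2 in mutants, against 5.0, 5.37 and 5.07 log2 in wild type, and differed by 0.28 ± 0.14. Laptm4b had 3.08, 2.79 and 2.62 log2 in mutants, against 2.55, 2.57 and 2.51 log2 in wild type, and differed by 0.29 ± 0.17. The 2 genotypes did not overlap for these probes but did for a second Laptm4b probe, which differed by 0.35 ± 0.22, and no probe of either gene passed. The calcium channel Mcoln1, the cystine exporter Ctns and Cln3, whose loss causes a neuronal storage disease, differed by -0.03 ± 0.19, -0.04 ± 0.22 and 0.21 ± 0.22. Tfeb itself had 1.45, 1.53 and 1.46 log2 in mutants, against 0.97, 1.13 and 1.36 log2 in wild type. Its groups did not overlap, and its difference of 0.32 ± 0.26 did not pass (limma, adjusted p = 0.595).

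**Figure D2:**
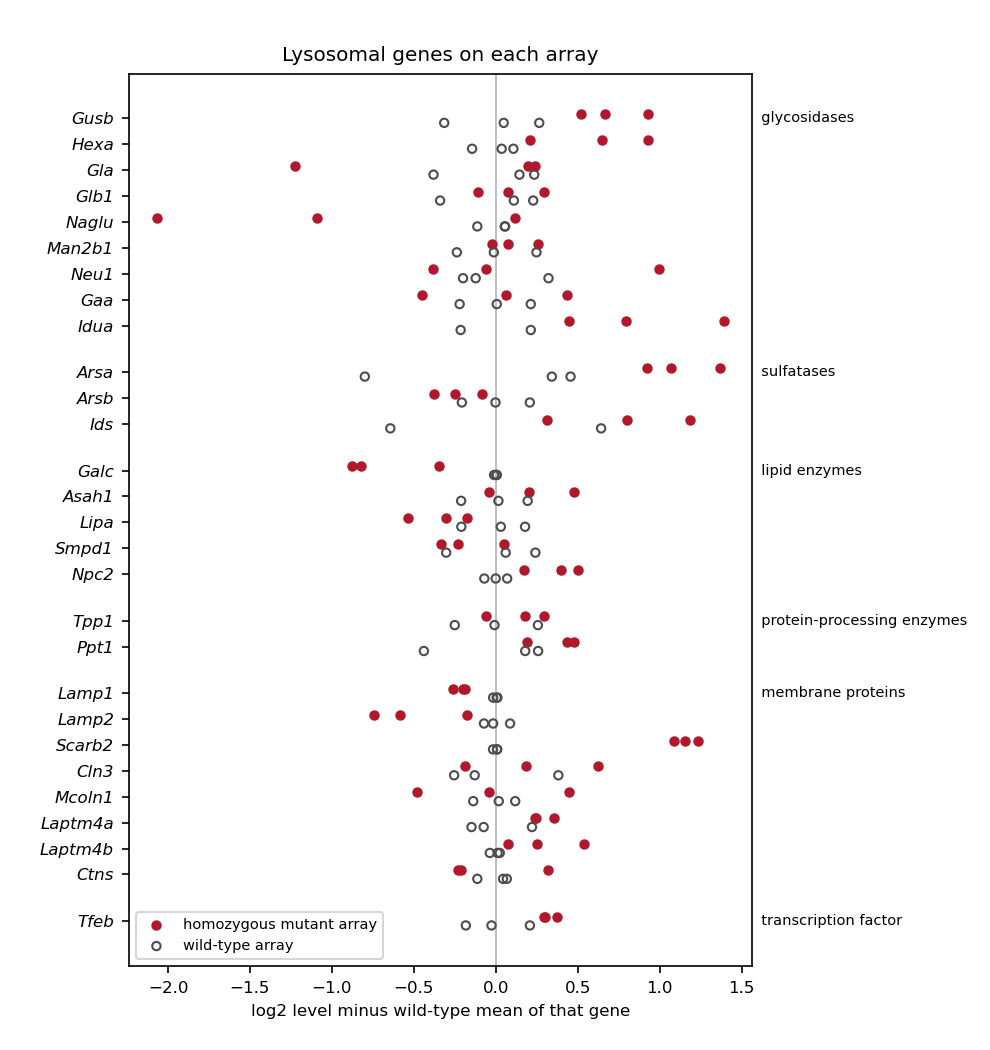
Log2 level of each tested gene minus its own wild-type mean, with 3 mutant arrays as filled points above 3 wild-type arrays as open points, grouped by class; Idua and Ids have 2 wild-type values. Scarb2 shows the widest gap between genotypes relative to the spread of its arrays, and most other genes have points of both genotypes around 0.

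A missed threshold does not show that a gene was equal in both genotypes, so the 95% intervals of the fit were read against a 2-fold change. Of the 26 members that did not pass, 19 had an interval inside 1 log2 unit on either side of 0, and 4 had one inside 0.5 units. These intervals come from the fit with an intensity trend. The Hexa interval reached 0.999 log2, and its SE was 0.19 with the trend and 0.24 without it. For the 4 members inside 0.5 units, Glb1, Man2b1, Tpp1 and Mcoln1, SEs were 0.17, 0.16, 0.16 and 0.19 with the trend. Without it they were 0.23, 0.21, 0.22 and 0.28, too large for any of these 4 intervals to stay inside 0.5 units. With the trend, the interval of Glb1 ran from -0.27 to 0.45 log2, that of Man2b1 from -0.23 to 0.44 and that of Tpp1 from -0.21 to 0.48. A second Man2b1 probe had a wider interval, from -0.15 to 0.70 log2. For the other 7 members, Gla, Naglu, Neu1, Idua, Arsa, Ids and Galc, a 2-fold difference was not outside the interval. SEs ran from 0.12 log2 for Scarb2 to 0.62 for Ids, with a median of 0.19, beside 0.27 over all genes tested.

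**Figure D3:**
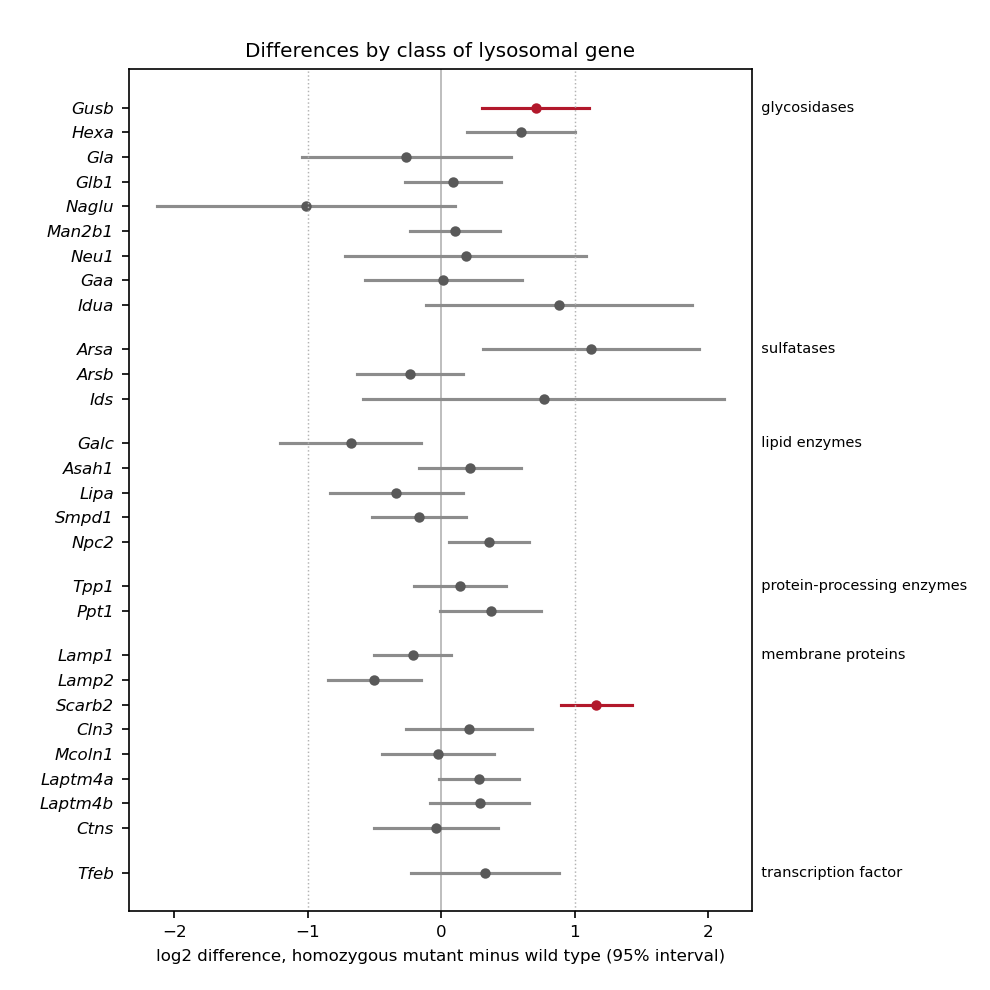
Log2 difference, homozygous mutant minus wild type, of the 28 tested genes with the 95% interval of the limma fit; dotted lines mark 1 log2 unit on either side of 0. Scarb2 and Gusb, drawn in red, passed the test, and 19 of the other 26 intervals lie between the dotted lines. The means of Naglu, Neu1, Idua, Arsa and Ids lay below the low-signal limit in at least 1 genotype.

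The class medians on single arrays varied among the mutants. For membrane proteins and lipid enzymes the wild-type arrays lay closer together than the mutant arrays did. Relative to each gene's wild-type mean, the median over the 26 members with 6 values was 0.28, 0.02 and 0.18 log2 in mutants, against -0.14, 0.04 and 0.01 log2 in wild type. Without Scarb2 and Gusb it was 0.17, -0.05 and 0.15 log2 in mutants, against the same values in wild type. Membrane proteins gave 0.34, -0.12 and 0.13 log2 in mutants, against 0.01, 0.02 and -0.03 log2 in wild type. Glycosidases gave 0.07, 0.14 and 0.31 log2 in mutants, against -0.17, 0.08 and 0.08 log2 in wild type. Lipid enzymes gave -0.31, -0.23 and -0.04 log2 in mutants, against -0.07, 0.03 and 0.00 log2 in wild type. Mutant replicate 2 was thus level with wild type or below it for membrane proteins and lipid enzymes, and above it for glycosidases.

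In the other lists of lysosomal genes, most genes did not pass, and none fell. These counts stand beside 5.67% of all genes that rose. Of 12 tested cathepsins and other lysosomal proteases, 4 rose and 0 fell, with a median difference of 0.11 log2. With replicates 2 and 3 only, 2 rose, Ctss and Ctsc. Ctss, a cysteine protease of antigen-presenting cells, had 6.16, 5.48 and 5.33 log2 in mutants, against 3.19, 3.16 and 3.06 log2 in wild type, and rose 5.74-fold (limma, adjusted p = 4.0e-06). Ctsc, which activates serine proteases of leukocytes, rose by 1.16 ± 0.20 log2 units (limma, adjusted p = 0.0033), and the broadly expressed Ctsb by 0.70 ± 0.14 (0.0107). Without mutant replicate 1 Ctsb did not pass (0.57, limma adjusted p = 0.0542). Ctsk, a collagen-degrading protease, averaged below the low-signal limit in wild type. It was at least 1.25-fold higher in mutants (limma, adjusted p = 0.0230), a call lost without mutant replicate 1, 2 or 3 or wild-type replicate 3. The Ctsk value of wild-type replicate 3 lay at the floor, and with no floor Ctsk did not pass (limma, adjusted p = 0.149). A second Ctsc probe also rose, and another one, below the limit, did not pass.

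Of 14 other hydrolases and cofactors 2 rose and 0 fell. Pla2g15, the lysosomal phospholipase, rose by 0.81 ± 0.16 log2 units and Grn, whose product progranulin is cut into granulins in the lysosome, by 0.69 ± 0.13 (limma, adjusted p = 0.0069 and 0.0072). Of 15 other membrane proteins Litaf, which sits on late endosomes and lysosomes, was the 1 that rose. Litaf had 4.88, 4.98 and 4.72 log2 in mutants, against 3.46, 3.74 and 3.90 log2 in wild type, a difference of 1.16 ± 0.15 (limma, adjusted p = 2.9e-04). Of 20 subunits of the V-ATPase, the proton pump that acidifies the lysosome, only Tcirg1 rose, by 0.86 ± 0.21 (limma, adjusted p = 0.0318). A second Tcirg1 probe, below the limit, did not pass, and without mutant replicate 1 or 2 or wild-type replicate 1 or 2 the first did not either. Tcirg1 also missed the threshold after quantile normalization (0.71, limma adjusted p = 0.0574) and after cyclic loess (0.70, 0.0555). Of 14 genes that sort proteins to the lysosome and 17 of TFE factors and autophagy, 0 passed, with medians of 0.05 and 0.13 log2. In the fit to replicates 2 and 3, Pla2g15, Grn and Litaf again rose and 0 genes of the other lists did. Without an intensity trend Ctss alone among these 8 genes passed.

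Markers of other cell types moved between the genotypes at the same time. Of 14 macrophage and myeloid markers 9 rose and 0 fell, and the summed level of the 13 with 6 values was 151 to 214 array medians in mutants, against 37.0 to 42.0 in wild type. The macrophage marker Adgre1 was below the low-signal limit on every array with a value. Of 7 fibroblast and smooth muscle markers 7 rose, with sums of 417 to 420 in mutants, against 114 to 136 in wild type. Col3a1 alone gave most of these mutant sums. Of 14 proximal tubule markers 8 fell and 0 rose, with sums of 513 to 637 in mutants, against 1074 to 1167 in wild type. Miox alone gave most of the proximal tubule sums in both genotypes. Of 8 collecting duct and distal tubule markers and 3 podocyte markers, 0 passed, and of 4 endothelial markers 1 rose. With replicates 2 and 3 only, 9 of 12 macrophage and 7 of 7 fibroblast and smooth muscle markers rose, 7 of 14 proximal tubule markers fell, and 0 of 4 endothelial markers passed. With no intensity trend, none of the 8 proximal tubule markers that fell passed (limma, adjusted p from 0.0811 for Miox to 0.259 for Slc3a1). Nor did Col1a2, Pdgfrb and Acta2 (0.0624, 0.0726 and 0.228), Fcer1g and Itgb2 (0.105 and 0.0505) or the endothelial Tie1 (0.265). The other macrophage and fibroblast markers that rose still passed. The part of these markers in the values of Scarb2, Gusb and the other lysosomal genes was not tested. In pieces of whole kidney, fewer cells of a type and less RNA per cell cannot be told apart.

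**Figure D4:**
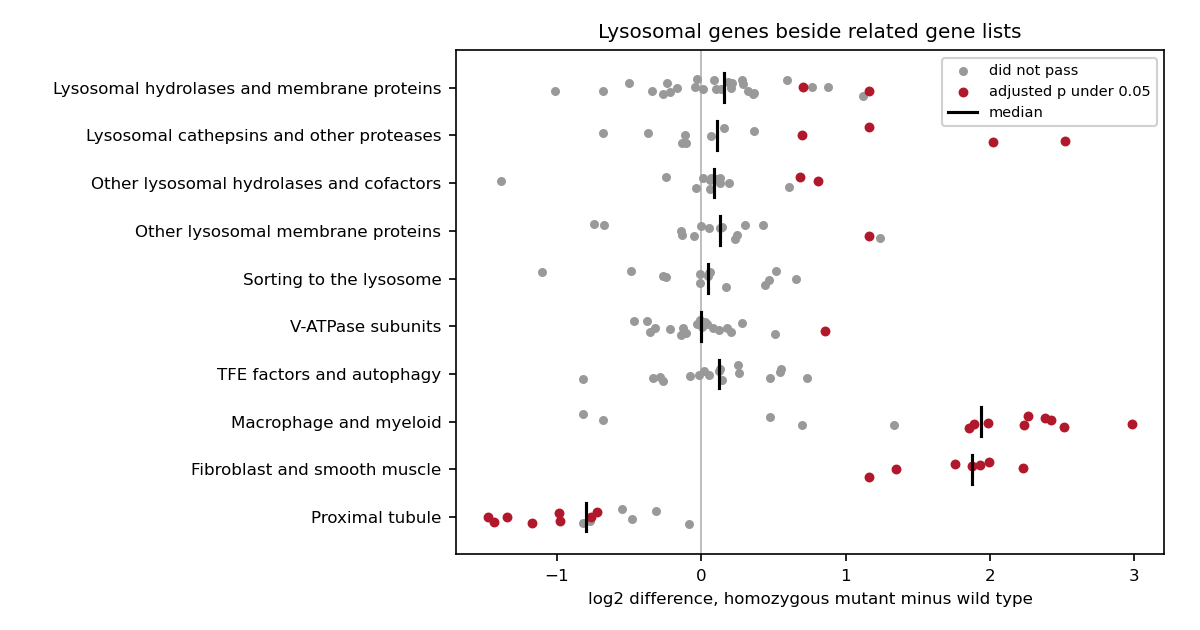
Log2 difference, homozygous mutant minus wild type, of each tested gene in 10 gene lists, with red points for an adjusted p under 0.05 and a bar at the list's median. Medians of the 7 lysosomal lists at the top lie between 0.00 and 0.16, while those of macrophage, fibroblast and proximal tubule markers are 1.94, 1.88 and -0.80.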

How the data were processed

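Kidney RNA of 3 homozygous mutant and 3 wild-type mice was measured on 6 arrays. The deposited table held 1 linear intensity per probe (34937 probes) and array. Its values ran from -1.02 to 951 with array medians of 0.994 to 0.997, which are values of the kind left by background subtraction and scaling to the array median before they were deposited. Neither labels nor files name the software. Per the labels' protocols, targets were biotin-labelled cRNA for CodeLink arrays.

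Each array was divided by its median, values not above 0 became missing, a floor was set at the 10th percentile of positive values (0.290), and log2 was taken. Probes needed values on 2 arrays of each genotype, and the lowest 25% by mean were left out, which left 25834. The test was limma 3.58.1 under R 4.3.3 (lmFit, eBayes with intensity trend, two-sided), adjusted over all probes by Benjamini-Hochberg. Errors are SEs of the fit or SDs over 3 arrays, and precision is limited by the number of arrays. The code was tested on simulated data.

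Symbols came from the platform annotation, in which 21590 probes have 1 symbol, 681 have several and 12666 have none. Of the first kind, 21462 matched the RefSeq table of GRCm38.p6 by gene identifier. The low-signal limit is the mode of the linear values (0.519) plus 3 times the spread below it (0.328), or 1.50 array medians. The members and lists were chosen with earlier results of these data known. Values on each array are given for Scarb2, Gusb, Tfeb, members past the threshold and members whose groups did not overlap, and a few others named after their values were seen (Gla, Naglu, Idua). Other lists name up to 5 genes by smallest p. Alternatives covered scaling, floor, filters, variance model, array weights, blocks and left-out arrays.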

Additional observations from a re-analysis of the deposited data

How the results depend on the processing

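Scarb2 passed in all 20 alternative fits, with differences between 1.09 and 1.19 and limma adjusted p between 1.6e-05 and 0.0494. Gusb had 0.57 log2 after quantile normalization (adjusted p = 0.0701) and 0.57 after cyclic loess (0.0615), 0.71 with no floor (0.0596), 0.66 with a pseudocount of 0.5 (0.0548), 0.71 with no intensity trend (0.250) and 0.44 with replicates 2 and 3 only, and passed in none of these fits. Left out in turn, single arrays gave Gusb differences of 0.55 to 0.84, and it passed only without wild-type replicate 2. The cause was not tested. A term for the replicate 1 arrays, added after seeing the data, kept both calls.

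Members past the threshold numbered 1 after quantile normalization, cyclic loess, no floor, a pseudocount of 0.5, no intensity trend or a threshold of 0.01, and 4 over all 32 tested probes of the members, where Scarb2 counts 3 times. They numbered 1 to 2 in fits without 1 array. The median member difference was 0.018 to 0.24 in fits without 1 array, the lowest without wild-type replicate 1, and 0.08 to 0.21 in the others. The median over all genes was -0.01 after quantile normalization or cyclic loess, a shift of under 0.1. Probes past the threshold numbered 1392, and 743 to 1230 without 1 array, 191 with no intensity trend, 905 with replicates 2 and 3 only and 678 at a threshold of 0.01. Higher probes made up 76.4% of these calls, 61.5% after quantile normalization and 62.9% after cyclic loess.

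Of the 26 members that did not pass, 17 kept their direction in every alternative run and 9 changed it in at least 1, all without passing. Gaa was -0.12 with quantile normalization and -0.14 with loess. With array weights Glb1 was -0.0048 and Mcoln1 0.00039. With replicates 2 and 3 only, Gla was 0.34, Glb1 -0.076, Man2b1 -0.091, Gaa -0.0050, Tpp1 -0.066 and Mcoln1 0.13. Fits without 1 array gave Cln3 -0.0029 to 0.40, Ctns -0.22 to 0.054, Gaa -0.19 to 0.25, Gla -0.51 to 0.22, Glb1 -0.082 to 0.20, Man2b1 -0.014 to 0.23, Mcoln1 -0.26 to 0.20 and Neu1 -0.22 to 0.47. Hexa passed without mutant replicate 2 and with the replicate block, and Lamp2 without mutant replicate 1, with array weights and with replicates 2 and 3 only.

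Arrays with the same number in the labels deviated together with correlations of 0.072, 0.020 and 0.070, and the main fit did not pair them. Such correlations over all probes cannot show that the numbers share no factor, since both replicate 1 arrays carried the female pattern of sex-linked transcripts. The replicate block gave 1856 probes and 3 members past the threshold, with Scarb2 at 1.16 and Gusb at 0.71.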
